A study of Homo sapiens with 18 samples.

Results

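i-BET858 was set directly against i-BET151 in OVCAR-3 cells after 4 h, using the 6 drug libraries of that time point out of 18 libraries in the series. OVCAR-3 is an established human cell line of high-grade serous ovarian carcinoma, and i-BET858 and i-BET151 are both small-molecule inhibitors of the BET bromodomain proteins. The libraries were chosen by their columns in the deposited 4 h gene count table: 3 libraries of cells given i-BET858 at 1 µM for 4 h and 3 of cells given i-BET151 at 1 µM for 4 h. The 3 DMSO libraries of the same table were cells given the vehicle for 4 h, and their level is given as the reference for many of the genes named, not for all. All 9 cultures were kept in stripped medium during treatment, and polyadenylated RNA was sequenced. A single cell line and 1 concentration of each drug were used, so a stronger effect and a different kind of effect of i-BET858 cannot be told apart here. The comparison asks which genes the drugs leave at different levels when concentration and time are matched.

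The BET proteins read acetylated lysines on histone tails through tandem bromodomains and bring the elongation kinase P-TEFb to genes. P-TEFb is held inactive in a complex with 7SK RNA and HEXIM1, and HEXIM1 transcript rises when BET proteins are displaced, which is why it is used as a marker of target engagement. BET inhibition lowers many genes that depend on fast reloading of elongation factors and raises others, among them histone genes and cell cycle inhibitors.

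The 9 libraries of 4 h held 27323969 to 39432226 counts each. Replicate 3 stood apart from the others in breadth, with 18198 to 20642 genes counted at least once against 23674 to 24938 in replicates 1 and 2. All 10 ovarian serous markers had a median of 1 CPM (counts scaled to library size) or more in the drug libraries, among them PAX8 and WT1. The leukocyte markers summed to 1.43 to 2.73 CPM in any drug library, with CD68 at 0 in all of them, against 10400 to 12300 CPM for the ovarian markers. The ovarian sum was 11400 to 12300 CPM with i-BET858 and 10400 to 11000 with i-BET151. Of 6 fibroblast and 4 endothelial markers 2 each reached 1 CPM, and the endothelial sum was 8.79 to 14.2 CPM with i-BET858 and 4.61 to 11.8 CPM with i-BET151. The part of these sums in the results was not tested.

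Of 17192 genes tested, 1655 differed between the drugs at an adjusted p under 0.05, which is 9.63% of the genes. With i-BET858, 753 of them were higher (4.38% of all tested) and 902 lower (5.25%). The sizes were modest: the median log2 difference was 0.50 in the higher and -0.55 in the lower genes, and 119 genes (0.692%) also differed at least 2-fold, 62 higher (0.361%) and 57 lower (0.332%). All 1655 had the same sign in 3 of 3 replicate pairs. In 511 of the 753 and 732 of the 902 the i-BET858 and i-BET151 libraries did not overlap, against 16.8% of all genes tested. Sign and separation are read from the same values that made the call, so they describe these genes and are no further test. The pairing by replicate number carried much of the count of 1655, since the same model without the replicate block called 167 genes, 36 of them at 2-fold. Scaling by total counts moved the median of all genes from 0.02 to -0.08 and gave 449 higher and 1727 lower genes, so small differences that share 1 direction depend on the scaling. Leaving out single libraries gave 781 to 1712 genes, with the count more than 1.5 times smaller without i-BET858 replicate 3 (924), i-BET151 replicate 1 (859), replicate 2 (849) or replicate 3 (781). Of 136 genes given here as called, 67 passed in each of 12 fits that left out 1 library or 1 replicate number and 69 lost the call in at least 1 of them while keeping their sign. For the latter, the number of these 12 leave-out fits they passed is given after their values, with the highest adjusted p and the library or number left out there. Without the replicate block 35 of the 136 passed.

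**Figure D1:**
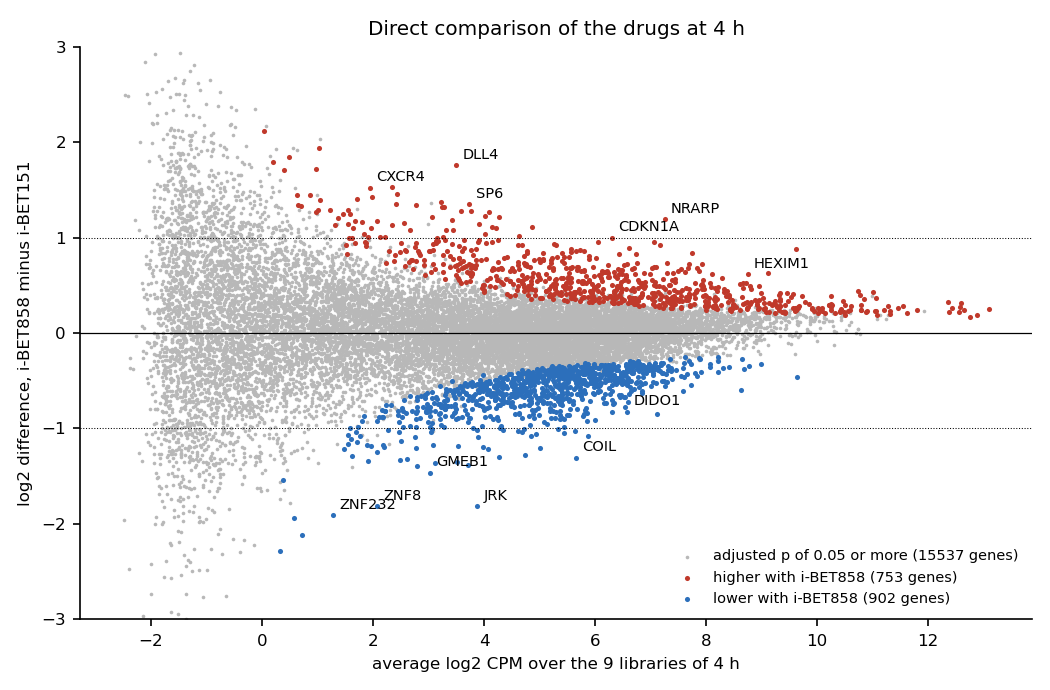
Log2 difference between i-BET858 and i-BET151 at 4 h for each gene tested (y axis) against its average log2 CPM over the 9 libraries of 4 h (x axis), with red for the 753 higher and blue for the 902 lower genes at an adjusted p under 0.05, and dotted lines at 2-fold. DLL4 and JRK stand far from the other genes of their level, and 14 genes with no call lie beyond the y axis.

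The DMSO libraries placed most of these genes in an order. In 674 of the 753 higher genes (89.5%) DMSO was below both drugs, in 59 it lay between them and in 20 it was above both. In 830 of the 902 lower genes (92.0%) DMSO was above both drugs, in 66 it lay between them and in 6 it was below both. Over all genes tested, DMSO was lowest in 60.9% of those with a positive difference and highest in 60.9% of those with a negative one. Tested against DMSO in the same model, which calls 45.4% of all genes for i-BET858 and 32.7% for i-BET151, 700 of the 753 higher genes were raised by i-BET858 and 583 by i-BET151. Of the 902 lower genes, 870 were lowered by i-BET858 and 609 by i-BET151. Both comparisons share the DMSO libraries and each shares drug libraries with the direct one, so these counts describe where the genes sit and are no further test. No gene that differed between the drugs was called against DMSO in opposite directions by them.

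The transcripts of the BET system itself differed. HEXIM1 (ENSG00000186834.3, chr17:45148475-45152099 on GRCh38) stood at 689, 713 and 604 CPM in the 3 i-BET858 libraries, 465, 429 and 413 CPM with i-BET151 and 184, 203 and 161 CPM in DMSO. Every i-BET858 library was above every i-BET151 library, and DMSO was below both. The log2 difference was 0.61 (SE 0.07, adjusted p = 0.00034, edgeR's quasi-likelihood test), or 1.53-fold. BRD2, one of the targets, followed the same order at 489, 452 and 423 CPM with i-BET858, 336, 293 and 283 CPM with i-BET151 and 188, 177 and 175 CPM in DMSO (log2 difference 0.58, adjusted p = 0.00034). MEPCE, the capping enzyme that stabilises 7SK RNA, was higher by 0.39 on the log2 scale (adjusted p = 0.0069). CCNT2, a cyclin subunit of P-TEFb, was lower with i-BET858 at 25.8, 27.9 and 22.1 CPM, while i-BET151 at 46.3, 39.6 and 40.4 CPM stayed close to DMSO at 47.9, 40.5 and 38.00 CPM (log2 difference -0.74, adjusted p = 0.0011). BRD3 did not pass the test, with a log2 difference of 0.23 (95% interval -0.04 to 0.49). With CDK9, the kinase of P-TEFb, lower at -0.34 (adjusted p = 0.023), 3 of the 11 tested members of the list on BET proteins and P-TEFb regulation were higher and 2 lower, against 4.38% and 5.25% of all genes. The counts were 2 and 1 without the replicate block, and 3 and 4 with scaling by total counts. MEPCE passed in 8 of the 12 leave-out fits (adjusted p up to 0.078 without replicate 3) and CDK9 in 4 (adjusted p up to 0.12 without i-BET151 replicate 2).

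Among factors of pausing and elongation, 2 of 22 were higher and 2 lower, against 4.38% and 5.25% of all genes. With scaling by total counts 2 were higher and 5 lower, and without the replicate block 0 and 1. NELFA, a subunit of the complex that holds paused RNA polymerase II, stood at 14.2, 12.2 and 14.2 CPM with i-BET858, 23.3, 27.1 and 34.9 CPM with i-BET151 and 48.6, 46.7 and 53.4 CPM in DMSO. The 3 groups did not overlap, and the drugs differed 2.08-fold (log2 difference -1.06, adjusted p = 0.00034). LEO1 of the PAF1 complex had a log2 difference of -0.66 and its partner CTR9 one of 0.47 (adjusted p = 0.0015 and 0.0051). ELL2, of the super elongation complex, was higher by 0.52 (adjusted p = 0.0088). CTR9 passed in 11 of the 12 leave-out fits (adjusted p up to 0.061 without replicate 2) and ELL2 in 10 (adjusted p up to 0.11 without replicate 2).

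Leaving aside genes whose average log2 CPM was under 1, the 14 largest differences higher with i-BET858 began with DLL4 and included several genes under 1 CPM in DMSO. DLL4 (ENSG00000128917.8, chr15:40929340-40939073), a Notch ligand, stood at 27.4, 26.3 and 23.7 CPM with i-BET858, 9.24, 8.32 and 5.55 CPM with i-BET151 and 0.212, 0.253 and 0.583 CPM in DMSO. The 3 groups did not overlap. The drugs differed 3.39-fold (log2 difference 1.76, SE 0.22, adjusted p = 0.00036). NRARP (ENSG00000198435.4, chr9:137299631-137302271), a Notch target that feeds back on the pathway, stood at 351, 319 and 243 CPM with i-BET858, 158, 138 and 104 CPM with i-BET151 and 20.7, 23.4 and 14.03 CPM in DMSO. Its groups were likewise separate, with a log2 difference of 1.20 (SE 0.09, adjusted p = 1.7e-05). LFNG, which modifies Notch receptors, was higher by 0.56 (adjusted p = 0.00063), and RBPJ, the DNA-binding partner of activated Notch, was lower at -0.66 (adjusted p = 0.0023). In the Notch list 4 of 21 tested members were higher and 1 lower (2 and 0 without the replicate block), against 4.38% and 5.25% of all genes, with a median log2 difference of 0.13 beside 0.02 over all genes.

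Genes of a ligand, a receptor and channels were also among these 14. ADM, the vasoactive peptide adrenomedullin, stood at 18.03, 16.9 and 13.2 CPM with i-BET858 and 7.37, 6.43 and 4.83 CPM with i-BET151. The i-BET151 libraries were level with DMSO at 6.81, 4.67 and 5.25 CPM, so that i-BET858 alone was called against DMSO (log2 difference 1.52, adjusted p = 4.2e-06, beside 0.15, adjusted p = 0.56, for i-BET151), and the direct difference was 1.38 (SE 0.17, adjusted p = 0.00036). CXCR4, the receptor of the chemokine CXCL12, stood at 8.17, 9.301 and 6.72 CPM with i-BET858, 3.23, 3.31 and 1.99 CPM with i-BET151 and 0.575, 0.4799 and 0.522 CPM in DMSO. No library of 1 drug reached the range of the other (log2 difference 1.52, adjusted p = 0.0011). AQP3, a channel for water and glycerol, stood at 17.8, 24.03 and 12.9 CPM against 7.54, 8.42 and 5.63 CPM, with DMSO at 2.36, 3.23 and 3.62 CPM (log2 difference 1.32, adjusted p = 0.0014). KCNJ2, an inward rectifier potassium channel, was higher by 1.42 (adjusted p = 0.0093), from 4.38, 3.13 and 2.24 CPM with i-BET151 to 8.42, 7.65 and 8.71 CPM with i-BET858. PCDH17, a protocadherin, was higher by 1.32 (adjusted p = 0.00034), and RASD1, a small GTPase induced by glucocorticoid, by 1.34 (adjusted p = 0.0034). ARC and TAMALIN, both known from synapses, were higher by 1.46 and 1.35 (adjusted p = 0.001 and 0.0012), with DMSO at 0.363 to 0.733 CPM and 0.212 to 0.276 CPM. KCNJ2 passed in 9 of the 12 leave-out fits (adjusted p up to 0.094 without i-BET858 replicate 3).

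So were the transcription factor genes SP6 and MSX1. SP6, of the SP and KLF family, stood at 33.1, 28.7 and 22.4 CPM with i-BET858, 13.05, 9.31 and 10.6 CPM with i-BET151 and 1.21, 0.556 and 0.8596 CPM in DMSO, a log2 difference of 1.35 (SE 0.17, adjusted p = 0.00036). The homeobox gene MSX1 stood at 14.1, 11.4 and 6.97 CPM against 5.16, 5.19 and 1.66 CPM, with DMSO at 0.303, 0.581 and 0.307 CPM (log2 difference 1.53, adjusted p = 0.0018). In both genes the groups did not overlap, although replicate 3 of i-BET151 lay well below the other i-BET151 libraries for MSX1. ZMAT4 and C2CD4A were also among the 14 largest, with log2 differences of 1.39 and 1.29 (adjusted p = 0.021 and 0.028). C2CD4A was the single gene of the 14 whose drug libraries overlapped, at 5.52, 6.298 and 2.801 CPM with i-BET858 and 2.82, 2.06 and 1.16 CPM with i-BET151. ZMAT4 passed in 7 of the 12 leave-out fits (adjusted p up to 0.26 without replicate 2) and C2CD4A in 4 (adjusted p up to 0.29 without replicate 2).

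Inhibitors of the cell cycle were higher with i-BET858 in 4 of the 7 tested genes of that list and lower in 0, and in 1 of the 7 without the replicate block, against 4.38% higher and 5.25% lower among all genes. CDKN1A, which encodes p21, stood at 171, 168 and 119.7 CPM with i-BET858, 91.3, 73.6 and 63.6 CPM with i-BET151 and 9.41, 9.55 and 4.88 CPM in DMSO. The groups were separate, and the drugs differed 2-fold (log2 difference 1.00, SE 0.11, adjusted p = 0.00029). CDKN2B, which encodes p15, stood at 219.7, 236 and 226 CPM against 140.1, 105 and 108 CPM, with DMSO at 59.6, 52.97 and 58.7 CPM (log2 difference 0.96, adjusted p = 0.00021). CDKN1C, which encodes p57, stood at 43.4, 39.6 and 30.4 CPM with i-BET858 and 26.8, 21.4 and 12.9 CPM with i-BET151, the latter reaching down to the DMSO level of 16.5, 13.6 and 14.2 CPM (log2 difference 0.93, adjusted p = 0.0017). CDKN2A was higher by 0.27 (adjusted p = 0.018). Of 26 tested p53 targets 5 were higher (0 without the block), among them PMAIP1 (0.84) and PLK3 (0.86), while MDM2, the ligase that degrades p53, was lower at -0.59 (adjusted p = 0.00087, 0.008 and 0.006). OVCAR-3 is known to carry mutant p53, and CDKN1A belongs to both lists. In the G2/M list 0 of 39 were higher and 3 lower (6 lower with scaling by total counts), namely NDC80 (-0.43), BUB3 (-0.39) and PLK1 (-0.37), a share near that of all genes, and 0 were lower without the block. All 39 had a 95% interval within 2-fold. CCNE1, the cyclin of S phase entry, was higher by 0.48 (adjusted p = 0.0045). CDKN2A passed in 5 of the 12 leave-out fits (adjusted p up to 0.19 without replicate 3), PLK3 in 9 (adjusted p up to 0.07 without replicate 2), MDM2 in 9 (adjusted p up to 0.073 without replicate 3), NDC80 in 5 (adjusted p up to 0.15 without replicate 2), BUB3 in 10 (adjusted p up to 0.082 without replicate 2), PLK1 in 3 (adjusted p up to 0.27 without replicate 3), and CCNE1 in 11 (adjusted p up to 0.053 without i-BET151 replicate 3).

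**Figure D2:**
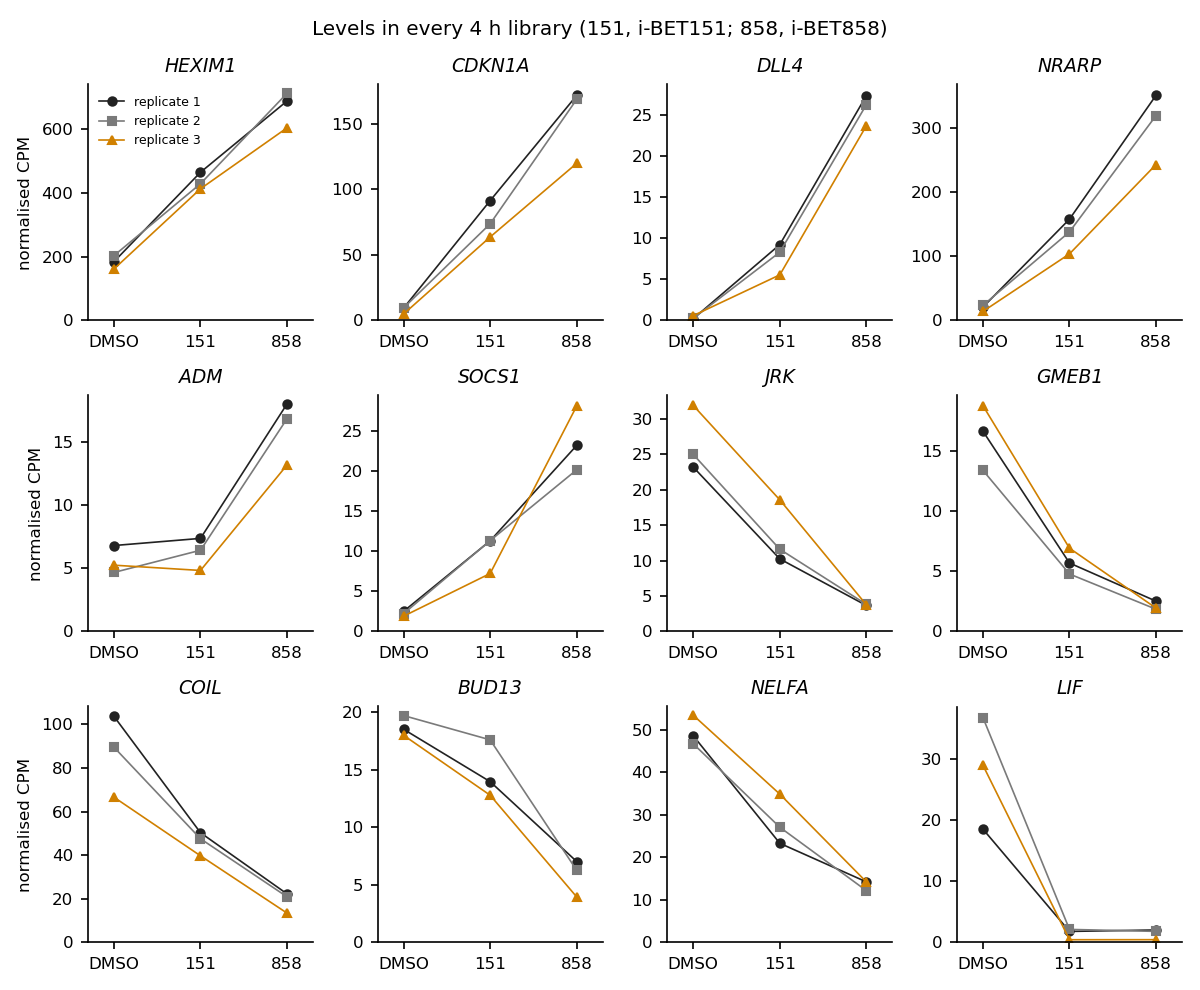
Normalised CPM (y axes, from 0) of 12 genes in the 9 libraries of 4 h, with DMSO, i-BET151 and i-BET858 from left to right and a line for each replicate number. HEXIM1, CDKN1A, DLL4, NRARP and SOCS1 step up from DMSO through i-BET151 to i-BET858, JRK, GMEB1, COIL and NELFA step down, ADM and BUD13 move mainly with i-BET858, and LIF is as low with either drug.

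Early response genes and feedback regulators of MAPK signalling held many higher members. Of 24 tested AP-1 and immediate early genes 11 were higher and 0 lower, with a median log2 difference of 0.63, against 4.38% higher over all genes. KLF4 stood at 62.9, 60.1 and 76.4 CPM with i-BET858, 36.01, 29.1 and 40.6 CPM with i-BET151 and 15.1, 13.97 and 20.1 CPM in DMSO (log2 difference 0.92, adjusted p = 0.00029). JUNB stood at 69.9, 75.3 and 70.1 CPM against 40.3, 43.7 and 33.6 CPM, with DMSO at 29.1, 32.8 and 33.2 CPM (log2 difference 0.88, adjusted p = 0.00036). For JUNB the lowest i-BET151 library was just above the highest DMSO library, while every i-BET858 library was above both groups. NR4A3, an orphan nuclear receptor, and ATF3, a stress-induced factor, were higher by 1.04 and 0.85 (adjusted p = 0.028 and 0.00077). Of 17 MAPK feedback genes 9 were higher and 1, the phosphatase gene DUSP8, lower (-0.81, adjusted p = 0.032). The higher ones included the phosphatases DUSP2 (1.14) and DUSP4 (0.91), the Ras pathway inhibitor SPRY4 (0.98) and PHLDA1 (1.08), with adjusted p-values of 0.012, 0.0058, 0.003 and 0.0052. The EGF receptor ligands HBEGF and AREG were higher by 0.71 and 0.82 (adjusted p = 0.0014 and 0.021), 2 of 13 tested genes of the ERBB list. Without the replicate block the higher members numbered 4 of 24 in the early response list and 1 of 17 in the MAPK feedback list. NR4A3 passed in 4 of the 12 leave-out fits (adjusted p up to 0.17 without i-BET151 replicate 2), DUSP8 in 4 (adjusted p up to 0.17 without replicate 1), DUSP2 in 5 (adjusted p up to 0.1 without replicate 2), DUSP4 in 11 (adjusted p up to 0.08 without replicate 2), and AREG in 6 (adjusted p up to 0.15 without i-BET151 replicate 2).

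SOCS1, an inhibitor of JAK kinases, stood at 23.2, 20.2 and 28.1 CPM with i-BET858, 11.3, 11.3 and 7.23 CPM with i-BET151 and 2.51, 2.22 and 1.903 CPM in DMSO (log2 difference 1.28, adjusted p = 0.0012). SOCS3 stood at 124, 129.8 and 138 CPM with i-BET858, while i-BET151 at 78.3, 71.3 and 88.4 CPM overlapped DMSO at 83.9, 70.3 and 68.7 CPM (log2 difference 0.72, adjusted p = 0.00079). In the IL6-JAK-STAT list 3 of 24 were higher and 1 lower, against 4.38% and 5.25% of all genes. These counts were 2 and 0 without the replicate block. IRF7, an interferon regulatory factor, was higher by 0.79 and IFI6 by 0.86 (adjusted p = 0.0019 and 0.017), 2 of 24 interferon-stimulated genes, where the 8.33% called were no more than the 9.63% of all genes. In the NF-kB and chemokine list NFKBIZ was higher by 0.57, and the subunits RELB and RELA were lower at -0.55 and -0.38 (adjusted p = 0.019, 0.028 and 0.041). IFI6 passed in 6 of the 12 leave-out fits (adjusted p up to 0.2 without replicate 1), NFKBIZ in 7 (adjusted p up to 0.13 without i-BET151 replicate 2), RELB in 5 (adjusted p up to 0.24 without replicate 2), and RELA in 6 (adjusted p up to 0.22 without i-BET151 replicate 2).

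Of 36 tested WNT genes 8 were higher and 1 lower, against 4.38% and 5.25% of all genes, with 6 higher and 4 lower under scaling by total counts and 1 higher without the replicate block. The receptors FZD8 and FZD5 were higher by 0.86 and 0.69 (adjusted p = 0.00029 and 0.0039). The ligand WNT11 stood at 52.6, 72.6 and 62.5 CPM with i-BET858, 33.6, 43.97 and 42.2 CPM with i-BET151 and 41.4, 63.5 and 70.6 CPM in DMSO, so that i-BET151 was the lowest of the 3 groups in mean (log2 difference 0.65, adjusted p = 0.0024). AXIN2, a feedback target, was higher by 0.64 (adjusted p = 0.032). WNT5A was the member lower with i-BET858, at 8.75, 7.94 and 10.2 CPM against 11.9, 11.4 and 15.2 CPM and a DMSO level of 48.8, 50.5 and 76.96 CPM (log2 difference -0.51, adjusted p = 0.017). For the TGF-beta and BMP list, 3 of 34 were higher and 2 lower, against 4.38% and 5.25% of all genes. Under scaling by total counts they numbered 2 and 6. BMP6 was higher by 1.01 and NOG, a BMP antagonist, lower at -0.58 (adjusted p = 0.03 and 0.028). Without the replicate block 0 of these 34 were called. FZD5 passed in 11 of the 12 leave-out fits (adjusted p up to 0.053 without replicate 2), AXIN2 in 4 (adjusted p up to 0.22 without replicate 1), WNT5A in 5 (adjusted p up to 0.1 without i-BET858 replicate 3), BMP6 in 4 (adjusted p up to 0.14 without replicate 2), and NOG in 5 (adjusted p up to 0.17 without i-BET858 replicate 3).

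Most stress and protein quality genes that passed were higher with i-BET858. Of 29 tested genes of the unfolded protein response and ATF4 13 were higher and 1, CEBPG (-0.33, adjusted p = 0.041), lower. Of 16 heat shock genes 10 were higher, and of 18 genes of the NRF2 list 5 were higher, against 4.38% of all genes. Without the replicate block the higher members numbered 0, 1 and 0 in these lists. With scaling by total counts 10 were higher and 2 lower in the first, 8 and 0 in the second, and 4 and 2 in the third. ERN1, the endoplasmic reticulum sensor IRE1, stood at 60.1, 80.2 and 80.6 CPM with i-BET858, 44.7, 37.4 and 44.8 CPM with i-BET151 and 13.1, 12.4 and 17.2 CPM in DMSO (log2 difference 0.80, adjusted p = 0.0017). CHAC1 and HERPUD1 were higher by 0.73 and 0.62 (adjusted p = 0.0084 and 0.0045). BAG3, a co-chaperone, stood at 352, 357 and 391 CPM against 217, 221 and 248 CPM, with DMSO at 88.3, 104 and 85.99 CPM and no overlap (log2 difference 0.68, adjusted p = 0.00044). HSPA1A, whose reads can also fit its near-identical copy HSPA1B, was higher by 0.57, and HSPH1 by 0.45 (adjusted p = 0.0098 and 0.0019). HMOX1, which degrades haem, was higher by 0.84 and NQO1 by 0.38 (adjusted p = 0.0095 and 0.0063). In the list on autophagy and lysosomes 6 of 33 were higher, SQSTM1 by 0.45 and MAP1LC3B by 0.46 (adjusted p = 0.0036 and 0.0098). With scaling by total counts 2 of the 33 were higher and 2 lower, and without the replicate block 0 were called. Among apoptosis genes 5 of 33 were higher and 2 lower, but with scaling by total counts 4 were higher and 6 lower. The counts were 1 and 0 for them without the replicate block. BCL2L11, which encodes the pro-apoptotic protein BIM, stood at 131, 119.8 and 122 CPM with i-BET858 and 91.8, 76.03 and 78.8 CPM with i-BET151 (log2 difference 0.60, adjusted p = 0.00086). MCL1, a survival gene, was also higher (0.29, adjusted p = 0.046). BCL2L1, which encodes the survival protein BCL-XL, was lower at 76.4, 64.8 and 76.9 CPM against 86.8, 98.96 and 87.03 CPM (log2 difference -0.33, adjusted p = 0.048), from 182, 167 and 175 CPM in DMSO. CEBPG passed in 4 of the 12 leave-out fits (adjusted p up to 0.29 without replicate 1), CHAC1 in 8 (adjusted p up to 0.08 without replicate 1), HERPUD1 in 10 (adjusted p up to 0.054 without replicate 2), HSPA1A in 9 (adjusted p up to 0.087 without i-BET151 replicate 2), HMOX1 in 7 (adjusted p up to 0.1 without replicate 2), NQO1 in 10 (adjusted p up to 0.056 without replicate 2), MAP1LC3B in 11 (adjusted p up to 0.09 without i-BET151 replicate 3), MCL1 in 4 (adjusted p up to 0.26 without i-BET858 replicate 2), and BCL2L1 in 1 (adjusted p up to 0.32 without replicate 2).

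Numbered zinc finger genes, the ZNF genes that encode putative DNA-binding proteins, made up 5 of the 14 largest decreases. Of 463 tested, 69 were lower and 6 higher, against 5.25% and 4.38% of all genes, with a median log2 difference of -0.22 beside 0.02 over all genes. The lower members numbered 9 without the replicate block, 51 without replicate 3 and 96 with scaling by total counts. ZNF8 stood at 1.43, 0.743 and 0.8402 CPM with i-BET858, 3.33, 3.95 and 3.29 CPM with i-BET151 and 5.203, 8.21 and 10.01 CPM in DMSO, a log2 difference of -1.81 (SE 0.32, adjusted p = 0.0029). Its exons overlap a readthrough gene on the same strand, ZNF8-ERVK3-1. ZNF232 stood at 1.04, 0.872 and 0.336 CPM with i-BET858, while i-BET151 at 2.41, 2.74 and 2.68 CPM overlapped DMSO at 3.99, 4.55 and 2.52 CPM (log2 difference -1.91, SE 0.36, adjusted p = 0.0039). It overlaps USP6 and ZNF232-AS1 on the opposite strand, and whether counting used strand is not given in the sources used here. ZNF772, ZNF605 and ZNF34 were lower at -1.39, -1.35 and -1.29 (adjusted p = 0.0022, 0.016 and 0.046). ZNF605 overlaps CHFR on the same strand, and ZNF772 an unnamed gene. Replicate 3 of i-BET858 was the lowest of the 9 libraries for ZNF34, at 1.97, 2.49 and 0.392 CPM for the 3 i-BET858 libraries. ZBTB26, a zinc finger protein with a BTB domain, was lower at -1.36 (adjusted p = 0.0033), at 2.601 ± 1.399 CPM against 6.32 ± 1.57 CPM and 16.7 ± 3.54 CPM in DMSO (mean ± SD, n = 3). ZNF605 passed in 10 of the 12 leave-out fits (adjusted p up to 0.081 without i-BET151 replicate 3) and ZNF34 in 1 (adjusted p up to 0.18 without i-BET151 replicate 3).

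JRK (ENSG00000234616.8), a nuclear DNA-binding protein, stood at 3.66, 3.81 and 3.75 CPM with i-BET858, 10.2, 11.6 and 18.6 CPM with i-BET151 and 23.2, 24.96 and 31.9 CPM in DMSO. The 3 groups did not overlap, and the 3 i-BET858 libraries were nearly equal. The drugs differed 3.51-fold (log2 difference -1.81, SE 0.17, adjusted p = 0.00012). JRK overlaps PSCA on the opposite strand, with the same limit as for ZNF232. GMEB1, a factor that binds glucocorticoid modulatory elements, stood at 2.51, 1.84 and 1.93 CPM with i-BET858, 5.67, 4.76 and 6.903 CPM with i-BET151 and 16.6, 13.4 and 18.7 CPM in DMSO (log2 difference -1.46, SE 0.19, adjusted p = 0.00048). COIL (ENSG00000121058.5, chr17:56938199-56961050) encodes coilin, the scaffold of Cajal bodies, where small nuclear ribonucleoproteins mature. It stood at 22.3, 20.9 and 13.4 CPM with i-BET858, 50.3, 47.6 and 39.7 CPM with i-BET151 and 104, 89.5 and 66.6 CPM in DMSO. Again no group overlapped another (log2 difference -1.31, SE 0.11, adjusted p = 4.8e-05). BUD13, of the complex that retains and splices precursor RNA, stood at 7.03, 6.27 and 3.95 CPM with i-BET858, while i-BET151 at 13.96, 17.6 and 12.8 CPM was nearer to DMSO at 18.5, 19.7 and 17.99 CPM (log2 difference -1.38, SE 0.17, adjusted p = 0.00037). SRSF4, a splicing factor rich in serine and arginine, was lower at -0.99 (adjusted p = 0.00021), at 26.5, 24.6 and 19.2 CPM against 46.3, 52.1 and 40.7 CPM.

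The remaining genes of the 14 largest decreases were CCDC71, ATXN7L2, CCDC66 and MKRN3. CCDC71 stood at 8.14, 8.300 and 8.23 CPM with i-BET858, 21.03, 23.2 and 16.98 CPM with i-BET151 and 31.3, 31.4 and 24.7 CPM in DMSO, with no overlap (log2 difference -1.30, SE 0.13, adjusted p = 0.00021). ATXN7L2, a relative of a SAGA complex subunit, stood at 3.55, 2.03 and 3.42 CPM with i-BET858 and 9.31, 7.75 and 5.83 CPM with i-BET151, and DMSO at 7.17, 6.06 and 4.54 CPM lay between them in mean (log2 difference -1.33, adjusted p = 0.003). CCDC66, a protein of centrosomes and cilia, was lower at -1.32, and MKRN3, a RING finger protein, at -1.34 (adjusted p = 0.01 and 0.011). For CCDC66 the i-BET151 libraries at 6.63, 8.07 and 6.05 CPM overlapped DMSO at 7.02, 11.5 and 5.86 CPM. Of the 28 largest differences in both directions, 20 passed at an adjusted p under 0.05 in each of 12 fits that left out 1 library or 1 replicate number, all 28 kept their sign in those fits, and 14 passed without the replicate block. CCDC66 passed in 11 of the 12 leave-out fits (adjusted p up to 0.055 without i-BET151 replicate 3) and MKRN3 in 9 (adjusted p up to 0.081 without replicate 1).

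Several families of chromatin and transcription cofactors had more members lower than the 5.25% seen over all genes. In the Mediator list 10 of 33 were lower and 0 higher, with a median log2 difference of -0.24. MED8 stood at 12.8, 9.91 and 8.46 CPM with i-BET858, 19.9, 21.9 and 18.7 CPM with i-BET151 and 28.7, 32.9 and 23.4 CPM in DMSO (log2 difference -0.97, adjusted p = 0.00082). MED9, MED30 and MED1 were lower at -0.65, -0.64 and -0.64 (adjusted p = 0.0017, 0.015 and 0.0035). Of 27 SWI/SNF genes 6 were lower and 1 higher, with ARID1A at 55.1, 65.6 and 81.1 CPM against 88.1, 80.3 and 122.8 CPM and 139, 137 and 191 CPM in DMSO (log2 difference -0.52, adjusted p = 0.0029). For ARID1A the drug groups overlapped while each pair had the lower value with i-BET858. ARID2 and BICRA were lower at -0.73 and -0.77 (adjusted p = 0.0044 and 0.0085). Of 34 histone methyltransferases and demethylases 6 were lower and 0 higher, led by SETD1A (-0.66, adjusted p = 0.0047) and KMT2B (-0.53, adjusted p = 0.0024). Of 26 acetyltransferases and deacetylases 4 were lower and 1 higher. KAT5, the catalytic subunit of the TIP60 complex, was lower at -0.97, CREBBP at -0.49, and the deacetylase SIRT1 was higher by 0.47 (adjusted p = 0.0075, 0.0089 and 0.015). Without replicate 3 the lower members numbered 8 for Mediator and 3 each for SWI/SNF, the methylation list and the acetylation list, and without the replicate block they numbered 2 for Mediator and 0 for the other lists. With scaling by total counts they numbered 14, 9, 10 and 4 in the same order. MED30 passed in 7 of the 12 leave-out fits (adjusted p up to 0.14 without replicate 2), BICRA in 9 (adjusted p up to 0.056 without replicate 3), KAT5 in 9 (adjusted p up to 0.13 without replicate 1), CREBBP in 10 (adjusted p up to 0.072 without i-BET151 replicate 3), and SIRT1 in 5 (adjusted p up to 0.097 without i-BET858 replicate 3).

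Of 48 tested genes of double-strand break repair and checkpoints 5 were lower and 1, the histone gene H2AX (0.47, adjusted p = 0.0012), higher, against 5.25% and 4.38% over all genes. With scaling by total counts 9 were lower, and without the replicate block 0. PALB2, the partner of BRCA2, stood at 5.91, 6.104 and 5.32 CPM with i-BET858, 9.41, 9.53 and 9.995 CPM with i-BET151 and 11.2, 13.01 and 12.03 CPM in DMSO (log2 difference -0.74, adjusted p = 0.0093). NBN, of the complex that senses breaks, was lower at -0.51 (adjusted p = 0.0045). The Fanconi genes FANCF and FANCE were lower at -0.58 and -0.55 (adjusted p = 0.013 and 0.011), and FANCE was above DMSO with i-BET151 at 19.1, 26.1 and 23.7 CPM, against 14.2, 16.99 and 15.5 CPM with i-BET858 and 14.9, 16.8 and 15.7 CPM in DMSO. In the ribosome biogenesis list 3 of 35 were lower and 3 higher, or 10 and 0 with scaling by total counts, with RRS1 lower at -0.71 and WDR43 at -0.61 (adjusted p = 0.00082 and 0.0045). Without the replicate block 1 of the 35 was lower and 0 were higher. In the YAP and TEAD list 1 of 15 was higher, 1 lower and 13 were not called, or 0 and 0 higher and lower without the replicate block. LATS1, a kinase of the Hippo pathway, was lower at -0.68 and CCN2, a target of YAP, higher by 0.53 (adjusted p = 0.0078 and 0.0024). PALB2 passed in 9 of the 12 leave-out fits (adjusted p up to 0.057 without replicate 1), NBN in 11 (adjusted p up to 0.05 without i-BET151 replicate 3), FANCF in 8 (adjusted p up to 0.13 without replicate 2), FANCE in 8 (adjusted p up to 0.087 without replicate 2), WDR43 in 11 (adjusted p up to 0.05 without replicate 3), and LATS1 in 9 (adjusted p up to 0.072 without i-BET151 replicate 3).

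**Figure D3:**
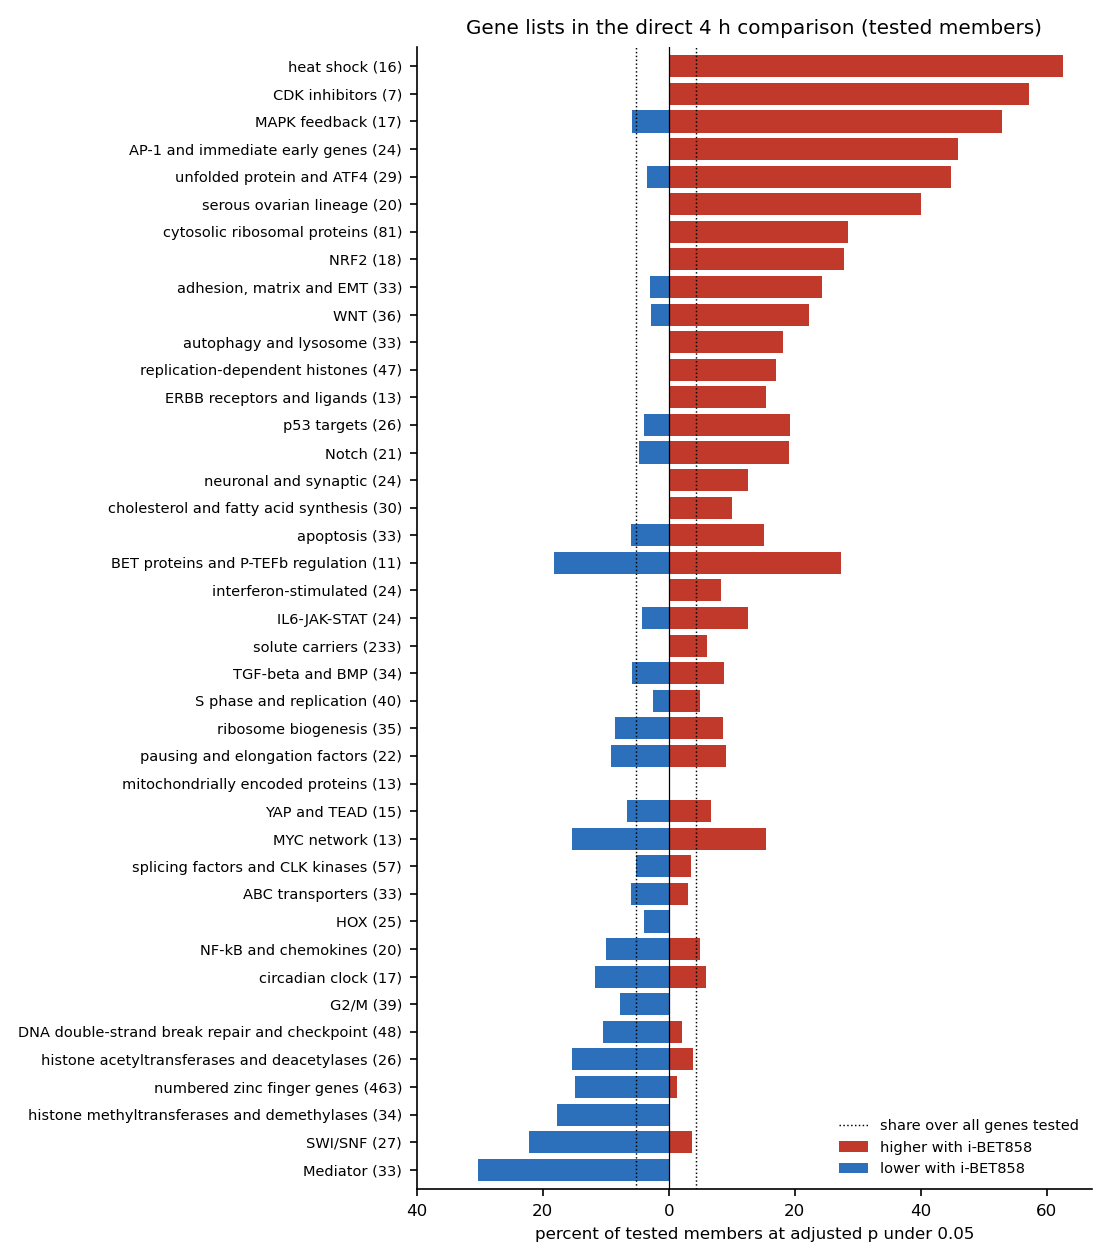
Percent of tested members of each of 41 gene lists at an adjusted p under 0.05 in the direct 4 h comparison (x axis), higher with i-BET858 to the right in red and lower to the left in blue, with tested members in brackets and dotted lines at the 4.38% and 5.25% of all genes tested. Heat shock, MAPK feedback and early response genes lie far to the right, and Mediator and SWI/SNF genes to the left.

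Cytosolic ribosomal protein genes were higher in 23 of 81, against 4.38% of all genes, but by small amounts, with RPLP1 at 0.29 (adjusted p = 0.0046). Of the 81, 0 were higher without the replicate block, and 1 was with scaling by total counts or without replicate 3. Their median log2 difference was 0.19, 0.19 without the block, 0.19 without replicate 3 and 0.09 with scaling by total counts. Replication-dependent histone genes were higher in 8 of 47, with a median log2 difference of 0.39, beside 4.38% of all genes. It was 15 of 47 without replicate 3, 3 of 47 with scaling by total counts and 0 of 47 without the replicate block. H2BC5 stood at 136, 176 and 139.5 CPM with i-BET858, 108, 100.2 and 89.2 CPM with i-BET151 and 46.7, 31.04 and 24.99 CPM in DMSO (log2 difference 0.61, adjusted p = 0.016). Reads of histone genes can fit near-identical copies. In the serous ovarian list 8 of 20 were higher, among them CLDN4 (0.39) and MSLN (0.43), and in the list on adhesion, matrix and EMT 8 of 33, among them the repressor SNAI1 (0.89), with adjusted p-values of 0.0032, 0.0054 and 0.0028. The serous list held 0 lower genes and the adhesion list 1. The serous and adhesion lists held 5 higher genes each with scaling by total counts, 4 and 3 without replicate 3, and 0 and 0 without the replicate block. Solute carriers were higher in 14 of 233 and lower in 0, a share near the 4.38% over all genes, and with scaling by total counts 10 were higher and 9 lower, with the creatine carrier SLC6A8 at 0.65 (adjusted p = 0.00034). Neuronal and synaptic genes were higher in 3 of 24, with CHGA at 0.97 (adjusted p = 0.014). Without the replicate block 1 of the 233 solute carriers and 0 of the 24 neuronal genes were higher. Of the 13 mitochondrially encoded genes 0 passed, with 95% intervals within 2-fold for all 13. RPLP1 passed in 10 of the 12 leave-out fits (adjusted p up to 0.073 without replicate 3), H2BC5 in 6 (adjusted p up to 0.12 without i-BET858 replicate 3), MSLN in 11 (adjusted p up to 0.065 without i-BET151 replicate 3), and CHGA in 8 (adjusted p up to 0.096 without i-BET858 replicate 2).

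Of the 24 genes fixed from the study's text, 14 did not pass between the drugs. The study picked many of them from these samples, so they are no independent evidence. LIF, a cytokine of the IL6 family, stood at 2.04, 1.81 and 0.448 CPM with i-BET858, 1.801, 2.13 and 0.442 CPM with i-BET151 and 18.6, 36.9 and 29.04 CPM in DMSO. The drug libraries overlapped (log2 difference -0.01, 95% interval -0.96 to 0.93). CCR1 had 0 counts in all 6 drug libraries and 0.877, 0.429 and 0.399 CPM in DMSO, and 3 counts, the level that a count of 0 allows, came to at most 0.11 CPM in a library. NRG1, a ligand of ERBB3 and ERBB4, stood at 5.95, 7.56 and 13.02 CPM with i-BET858 and 5.504, 7.04 and 7.57 CPM with i-BET151, from 15.2, 23.4 and 25.2 CPM in DMSO, and the drugs differed by 0.35 (-0.02 to 0.73). ZHX2 and TOPBP1 differed by 0.27 (0.02 to 0.51) and -0.25 (-0.45 to -0.04), and MAP3K3 by 0.13 (-0.11 to 0.36). SMAD4, PSMB5 and E4F1 differed by -0.34 (-0.55 to -0.12), 0.10 (-0.07 to 0.28) and -0.03 (-0.25 to 0.19). FOXM1 and AURKA differed by 0.04 (-0.19 to 0.26) and -0.15 (-0.36 to 0.07), and MYCN by 0.89 (-0.40 to 2.17). The intervals of ZHX2, TOPBP1 and SMAD4 leave out 0 before adjustment (adjusted p = 0.18, 0.13 and 0.052), and that of MYCN reaches beyond 2-fold. CCR1, without counts in the drug libraries, has no usable interval.

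DIDO1, by contrast, was lower with i-BET858 at 45.02, 49.3 and 56.1 CPM against 83.3, 93.3 and 89.1 CPM with i-BET151 and 146, 138 and 158 CPM in DMSO (log2 difference -0.82, SE 0.09, adjusted p = 0.00029). MYC stood at 27.96, 28.6 and 32.9 CPM with i-BET858, 19.1, 23.6 and 19.7 CPM with i-BET151 and 28.04, 23.5 and 29.2 CPM in DMSO, so that i-BET151 was the lowest group in mean, although its replicate 2 was level with that of DMSO (log2 difference 0.52, adjusted p = 0.023). MYCL was higher by 0.53, and MLX and MGA, partners in the same network, were lower at -0.55 and -0.39 (adjusted p = 0.0053, 0.015 and 0.032). ALDH1A1, an aldehyde dehydrogenase, was higher by 0.39 (adjusted p = 0.014), with i-BET151 at 94.96, 82.4 and 63.7 CPM level with DMSO at 87.9, 86.97 and 55.6 CPM. MYC passed in 6 of the 12 leave-out fits (adjusted p up to 0.15 without i-BET151 replicate 3), MYCL in 11 (adjusted p up to 0.056 without replicate 2), MLX in 6 (adjusted p up to 0.11 without i-BET151 replicate 2), MGA in 3 (adjusted p up to 0.2 without replicate 3), and ALDH1A1 in 5 (adjusted p up to 0.11 without i-BET151 replicate 2).

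Most genes could be bounded. For 11824 of the 17192 genes (68.8%) the 95% interval of the difference lay within 2-fold, and for 7957 (46.3%) within 1.5-fold. Of the 1655 genes that differed, 1232 (74.4%) had an interval within 2-fold. For the other 5368 genes tested the interval reached 2-fold or more, so that a difference of that size was not bounded. They include the remaining called genes.

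At 24 h the drugs were compared again in 9 separate libraries, 3 for each drug and 3 for DMSO, with 749 of 17157 genes (4.37%) at an adjusted p under 0.05. The higher genes largely kept their direction: 647 of the 753 (85.9%) were higher with i-BET858 at 24 h too, 161 of them at an adjusted p under 0.05, and 6 were called the other way. Among the lower genes 581 of the 902 (64.4%) were lower at 24 h too, 31 of them called, and 3 were called the other way. The difference between the 2 shares was not tested. Over all genes tested, the sign was the same for 54.0% of those higher at 4 h and 56.7% of those lower. In the genes of at least 2-fold, the median log2 difference went from 1.25 at 4 h to 0.60 at 24 h in the higher ones and from -1.18 to -0.19 in the lower ones. The genes were chosen on their 4 h values, so a smaller value at 24 h is given as a description.

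Single genes are given as examples, and not all genes followed this split. MYC, higher at 4 h, had the opposite sign at 24 h. The median log2 difference of the MAPK feedback list went from 0.43 at 4 h to 0.00414 at 24 h. That of the replication-dependent histone list went from 0.385 to 0.406. At 24 h HEXIM1 differed by 0.64 (adjusted p = 0.00086), CDKN1A by 0.95 (0.0044), CDKN2B by 0.63 (0.0032), NRARP by 0.65 (0.0074), SOCS1 by 0.98 (0.011) and AQP3 by 1.00 (0.0074). DLL4 and CXCR4 differed by 0.92 and 0.92 without passing (adjusted p = 0.067 and 0.057). Among the genes lower at 4 h, JRK differed at 24 h by -0.19 (adjusted p = 0.46), GMEB1 by 0.03 (0.94), BUD13 by -0.02 (0.96), NELFA by -0.21 (0.3), MED8 by 0.10 (0.7) and DIDO1 by -0.20 (0.19). COIL was the exception among them at -0.32 (adjusted p = 0.049). The difference between the time points was tested in 1 model over all 18 libraries, where 765 of 18154 genes (4.21%) passed, and 16 of the 52 genes of the 28 largest differences and the study's list did so. Without the replicate block 26 genes passed.

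**Figure D4:**
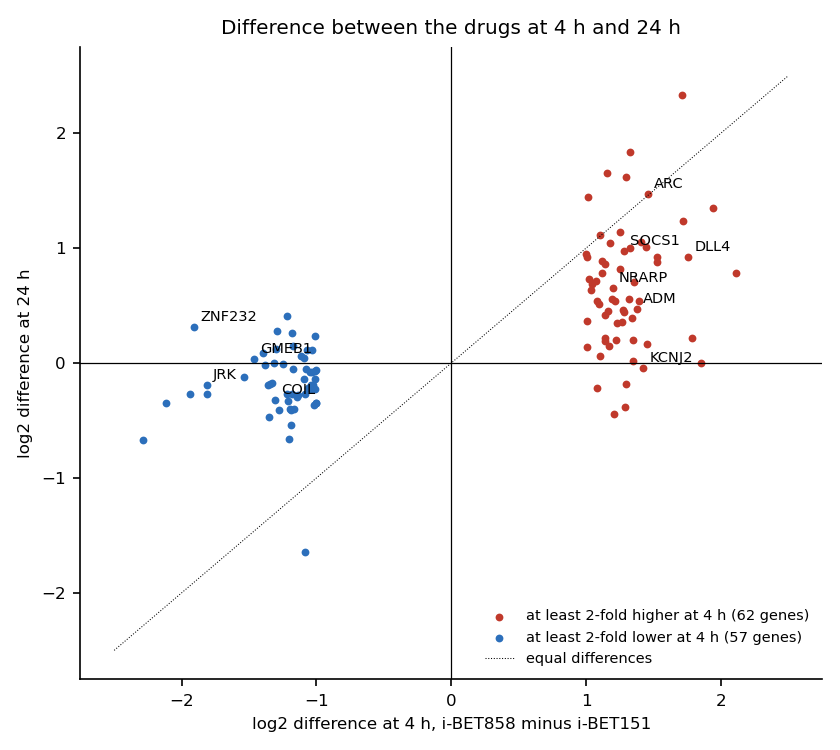
Log2 difference between i-BET858 and i-BET151 at 24 h (y axis) against that at 4 h (x axis) for the 119 genes at least 2-fold different at 4 h, with red for the 62 higher and blue for the 57 lower genes and a dotted line for equal differences. The red points lie mostly above 0 at 24 h and the blue points close to 0.

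The higher and the lower genes also differed in structure, given here as a description. Protein-coding genes made up 97.2% of the higher and 98.0% of the lower genes, against 80.9% of all tested. The median span of protein-coding genes was 18458 bp in the higher, 33988 bp in the lower and 34265 bp in all tested genes, and the median exon number of the canonical transcript was 6, 8 and 9. Genes with 1 exon made up 7.51% of the higher, 3.39% of the lower and 2.39% of all. Transcripts were longest in the lower genes, with a median of 4113 bases against 2831 in the higher and 3377 in all.

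**Figure D5:**
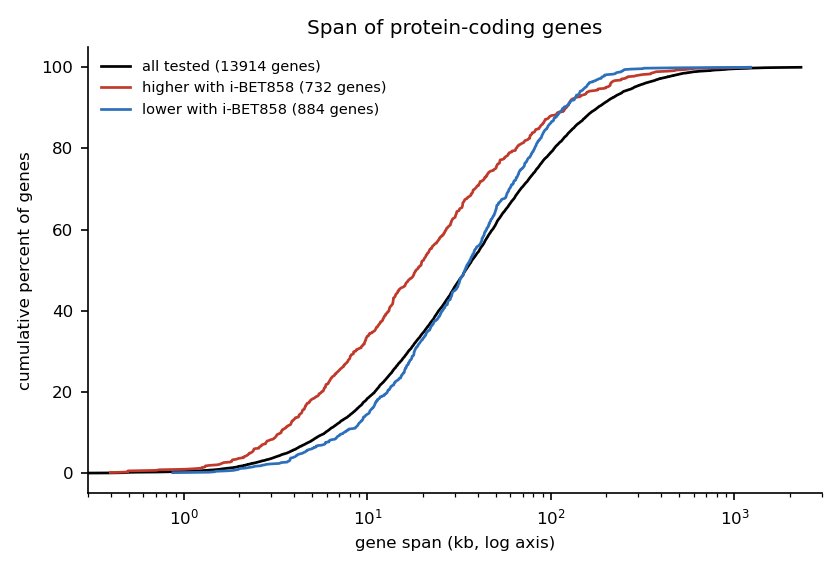
Cumulative percent (y axis) of protein-coding genes by gene span in kb (x axis, log scale) for all 13914 tested, the 732 higher with i-BET858 and the 884 lower. The curve of the higher genes lies to the left, with a median of 18458 bp, while that of the lower genes runs near all tested genes with fewer of the shortest and of the longest spans.

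Promoters were read in windows from 250 bases before to 50 bases after the start site, and matches to 8 fixed motifs were counted on both strands. In the RefSeq windows (GRCh38.p14) 562 of the 732 higher and 748 of the 884 lower protein-coding genes had an entry. Since the first is under 80%, the check on these windows alone is void, and the same windows were read from the GRCh38 genome at the canonical start of every protein-coding gene tested, a choice made after seeing the data. In the RefSeq windows TATAAA was found in 17.1% of the higher, 3.34% of the lower and 6.01% of all genes, and ACTTCCGG in 2.85%, 16.7% and 8.13%. In the genome windows TATAAA was present in 18% of the 732 higher, 3.17% of the 884 lower and 5.58% of all 13914 promoters. ACTTCCGG, a core bound by ETS factors, was present in 2.05% of the higher, 16.9% of the lower and 8.06% of all. GCATGCGC, the core bound by NRF1, was present in 3.14%, 8.71% and 5.27%, CCAAT in 45.1%, 32.9% and 35.7%, and GGGCGG in 83.1%, 70.1% and 73.7%. The remaining motifs were CACGTG in 7.92%, 12.3% and 9.65%, TGACGTCA in 3.83%, 4.30% and 3.24%, and TGAGTCA in 4.37%, 1.58% and 2.77%. Among the genes of at least 2-fold, TATAAA was found in 16 of 56 higher promoters, ADM, AQP3, CXCR4 and NRARP among them, and in 0 of 51 lower ones, while ACTTCCGG was found in 0 of 56 and 12 of 51. Median GC content was 68.8% in the higher, 65.7% in the lower and 66.3% in all promoters. These shares were not tested, and a match is a description, not a site in use.

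RefSeq promoters of 3 of the genes are shown as examples of what such windows hold, each given as the 250 bases before the start site with matches to the motifs in capitals. They are NRARP, higher with i-BET858 (chr9:137302272-137302521, minus strand), HEXIM1, the marker of engagement (chr17:45148225-45148474, plus strand), and COIL, lower with i-BET858 (chr17:56961051-56961300, minus strand), all on GRCh38.p14.
NRARP: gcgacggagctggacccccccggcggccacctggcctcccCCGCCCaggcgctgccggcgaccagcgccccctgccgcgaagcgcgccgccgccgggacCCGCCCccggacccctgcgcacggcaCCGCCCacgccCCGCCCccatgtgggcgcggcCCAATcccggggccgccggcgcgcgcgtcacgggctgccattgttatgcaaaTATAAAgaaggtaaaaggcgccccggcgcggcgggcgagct
HEXIM1: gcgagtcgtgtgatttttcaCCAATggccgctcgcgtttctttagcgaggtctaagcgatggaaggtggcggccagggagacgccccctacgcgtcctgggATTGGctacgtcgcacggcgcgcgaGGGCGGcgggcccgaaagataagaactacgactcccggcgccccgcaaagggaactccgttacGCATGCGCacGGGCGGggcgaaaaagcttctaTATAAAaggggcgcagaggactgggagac
COIL: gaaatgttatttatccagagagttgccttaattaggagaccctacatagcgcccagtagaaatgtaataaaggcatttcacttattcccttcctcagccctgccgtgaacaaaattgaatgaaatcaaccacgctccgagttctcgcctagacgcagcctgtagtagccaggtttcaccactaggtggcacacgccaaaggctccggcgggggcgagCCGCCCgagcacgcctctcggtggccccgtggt
In NRARP the match to TATAAA begins 41 bases before the start site and follows a match to CCAAT and 4 matches to GGGCGG. In HEXIM1 TATAAA begins 29 bases before the start site, with 2 matches each to CCAAT and GGGCGG and 1 to GCATGCGC upstream. In the bases shown COIL, a lower gene, holds 1 match, to GGGCGG, 33 bases before the start site and none to ACTTCCGG or GCATGCGC. The 50 bases after the start site, which the shares include, are not shown. HEXIM1, a higher gene, holds GCATGCGC, so a single promoter need not follow the shares.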

How the data were processed

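The authors deposited a table of gene counts for each time point, made from paired-end reads of polyadenylated RNA. The submitters' processing notes name STAR, DESeq2 and the build GRCh38 (hg38), and the study's methods name STAR's gene count mode. The strand setting of the counts and the annotation version are not given in the sources used here. The counts are raw and were used as deposited. Replicates are called biological by the study, with no record of separate passages, so p-values measure the spread between these cultures.

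The 9 libraries of 4 h were fitted in edgeR 4.0.16 (R 4.3.3) with TMM scaling, its default filter on low counts, treatment and the replicate number as a block, and i-BET858 was tested against i-BET151 by the quasi-likelihood test with Benjamini-Hochberg adjustment over 17192 genes. Standard errors and 95% intervals come from the F statistic. CPM are scaled by TMM and carry no gene length, so the levels of named genes are compared within a gene only. A gene was called at an adjusted p under 0.05, and separately also at 2-fold. The block follows the rule for this comparison. Deviations from the group means correlated at 0.141 to 0.365 over 9 pairs of same-numbered libraries, against -0.341 to 0.233 over 18 others. The ranges overlap. Deviations within a group sum to 0, so positive values in same-numbered pairs lower the others, and the contrast is no separate support for the block. Genes named are the 14 largest called differences in each direction at an average log2 CPM of at least 1, genes the study's text names, and up to a few per list, and some of these are not reported here. Members and gene lists were chosen with earlier results of these data known. Genes were placed by GENCODE 44, and promoters were taken from RefSeq. In counts simulated for this comparison over 17192 genes, edgeR recovered 21 of 50 genes changed 1.5-fold, 33 of 50 changed 2-fold, 41 of 50 changed 3-fold and 39 of 50 changed 4-fold, with 6 false calls. Alternatives were DESeq2 1.42.0, other scalings, filters and sample sets, no block and fits without 1 library.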

Additional observations from a re-analysis of the deposited data

Results flagged for a closer look

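For 16 of the 52 genes among the 28 largest differences and the study's list, the difference between the drugs at 4 h departed from that at 24 h, as tested by an interaction term in 1 edgeR model over the 18 libraries, where 4.21% of 18154 genes passed. Values are the log2 difference (i-BET858 minus i-BET151) at 4 h less that at 24 h. The genes of the largest differences were chosen on their 4 h values, which enter this measure, and the 4 h and 24 h libraries are separate tables, so time and any difference between the runs cannot be told apart.

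In the genes lower with i-BET858 at 4 h the value was -2.25 for ZNF232, -1.57 for ZNF8, -1.51 for ZNF772, -1.19 for ZBTB26, -1.65 for JRK, -1.52 for GMEB1, -1.39 for BUD13, -1.18 for ATXN7L2, -1.34 for CCDC66, -1.44 for CCDC71 and -1.01 for COIL (adjusted p = 0.0075, 0.031, 0.0057, 0.025, 0.00067, 0.0023, 0.0016, 0.035, 0.04, 5.1e-05 and 0.00067). None of the 14 largest increases passed this test. Among the study's genes the value was -0.652 for DIDO1, -0.715 for BCL2L1 and -0.6 for PLK1 (adjusted p = 0.0041, 0.0026 and 0.021). MYC, at 0.52 at 4 h and -0.30 at 24 h, gave 0.789 (adjusted p = 0.013). ZHX2 gave 1.21 (adjusted p = 0.0013), from 0.27 at 4 h and -0.97 at 24 h (adjusted p = 0.0028).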

How the results depend on the processing

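The count of called genes depended most on the replicate block: with no replicate block edgeR called 167 genes, 36 of them at 2-fold, and DESeq2 called 667. All 167 were among the 1655. Leaving out 1 library or 1 replicate number gave 781 to 1712 genes, and 78 to 132 at 2-fold, the lowest of both without i-BET151 replicate 3. A fold of at least 1.5 in place of 2 gave 684 genes. Scaling by total counts gave 449 higher and 1727 lower, 20.6% higher against 45.5%. The other tools, filters and sample sets gave 1388 to 2313 genes. The number of genes with a difference between 4 h and 24 h went from 765 to 26 with no replicate block and to 215 to 286 without 1 replicate number. The genes bounded within 2-fold numbered 10490 to 12436 throughout, and those with the 4 h sign at 24 h numbered 1176 to 1284.

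Of 148 named genes, 47 kept their side of the threshold with no replicate block and the others lost their call. In every setting the called genes kept their sign where they were tested. A change of sign occurred only in genes with differences near 0 that did not pass. LIF gave 0.00183 with DESeq2 and the block, and -0.519 to 0.344 when 1 library or number was left out. FOXM1 gave -0.0656 with total counts and -0.0349 to 0.139 in leave-outs, MAP3K3 -0.0562 to 0.242, and E4F1 -0.0998 to 0.0104. The cause was not tested. At a depth of 27323969 to 39432226 counts and 3 replicates, the median standard error was 0.161 on the log2 scale, and 3 counts, which a count of 0 allows, came to 0.0761 to 0.11 CPM (counting error only).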

Other observations

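Further gene lists held few differences. In the list of splicing factors and CLK kinases 2 of 57 genes were higher and 3 lower, close to the 4.38% and 5.25% of all genes. With scaling by total counts 2 were higher and 6 lower, and without the replicate block 0 and 1. Of the CLK kinases, which phosphorylate splicing factors, CLK1 stood at 55.7, 66.6 and 28.99 CPM with i-BET858 and 40.2, 35.4 and 22.8 CPM with i-BET151, with DMSO at 24.1, 32.8 and 16.5 CPM, while CLK2 stood at 49.8, 52.9 and 36.4 CPM against 70.4, 68.6 and 44.6 CPM and 50.4, 49.6 and 33.2 CPM in DMSO. Their log2 differences were 0.57 and -0.39, and that of CLK3 was -0.59 (adjusted p = 0.012, 0.018 and 0.0045). Among 17 circadian clock genes PER1 was higher (0.41) and TEF and BHLHE41 lower (-0.64 and -0.56), with adjusted p-values of 0.044, 0.004 and 0.0024. With scaling by total counts 0 of the 17 were higher and 4 lower. In the list on cholesterol and fatty acid synthesis 3 of 30 were higher, among them INSIG1, which retains the sterol sensor in the endoplasmic reticulum, at 0.58 (adjusted p = 0.0032). The efflux pump gene ABCB1 was higher at 1.79 (adjusted p = 0.042), from 0.917, 1.24 and 0.221 CPM with i-BET151 to 2.08, 4.04 and 1.32 CPM with i-BET858, and ABCF1 (-0.36) and ABCF3 (-0.42) were lower (adjusted p = 0.013 and 0.016), together 3 of 33 ABC transporters. Of 25 HOX genes HOXA5 was lower (-0.39, adjusted p = 0.018). Of 40 genes of S phase and replication 2 were higher and 1 lower, the primase subunit PRIM1 at 3.05, 2.55 and 3.73 CPM against 5.33, 5.86 and 5.72 CPM and 9.11, 7.65 and 5.495 CPM in DMSO (log2 difference -0.86, adjusted p = 0.033). With scaling by total counts 1 of the 40 S phase genes was higher and 5 were lower. Without the replicate block 0 members were called in the circadian, cholesterol, ABC transporter, HOX and S phase lists. CLK1 passed in 8 of the 12 leave-out fits (adjusted p up to 0.14 without replicate 2), CLK2 in 6 (adjusted p up to 0.17 without replicate 1), PER1 in 0 (adjusted p up to 0.25 without replicate 3), ABCB1 in 3 (adjusted p up to 0.4 without replicate 2), ABCF1 in 8 (adjusted p up to 0.082 without i-BET151 replicate 2), ABCF3 in 7 (adjusted p up to 0.091 without i-BET858 replicate 1), HOXA5 in 4 (adjusted p up to 0.1 without i-BET151 replicate 3), and PRIM1 in 4 (adjusted p up to 0.23 without replicate 2).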
